A study of Mus musculus with 64 samples.

Results

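Immediate early genes are genes that a cell switches on within minutes of a stimulus, without first making new protein. The 10 described here are Fos, Fosb, Jun, Junb, Egr1, Ier2, Atf3, Nr4a1, Btg2 and Zfp36, taken by symbol from the 35534 genes in each of 2 expression tables of mouse colon, and all 10 passed the filter on low counts in both tables. Growth factors, cytokines, calcium signals and tissue stress act through MAP kinases on serum response factor and its ELK partners, and through CREB, which sit ready at these promoters. The Fos and Jun proteins then pair as the transcription factor AP-1, and the transcripts are short lived, so their level in a frozen tissue reflects its most recent signals. In the gut they are known for responses of epithelium, muscle, nerve and immune cells to injury, feeding and neural input, and also for their quick response to dissection.

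The colon came from wild-type Swiss Webster mice of 8 to 12 weeks, kept on standard chow with 12 h of light and 12 h of dark, that were either specific pathogen free (SPF) and carried gut bacteria, or germ-free (GF) and carried none. Mice of either colony had intraperitoneal injections of 100 µl PBS alone or with 2.5 mg vancomycin, an antibiotic against Gram-positive bacteria, 2 times a day for 3 days and once on day 4. All mice, controls included, were therefore handled and injected, and the GF mice also left their isolators for ISOcages while they were treated. Colon was collected at 5, 11, 17 or 23 h after lights came on (zeitgeber time, ZT), which with 2 colonies and 2 treatments makes 16 groups of 4 libraries each. The labels do not say whether each library is a separate mouse, so p-values reflect how far libraries of a group lie apart, which may be technical. They also give no order of dissection, cage, or time from death to freezing, and the part of handling in the spread between libraries was not tested.

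Totals ran from 10044032 to 13615804 estimated counts per SPF library and from 10513966 to 15736087 per GF library. Markers of colon epithelium and of smooth muscle were high in every library, with mean log2 CPM (counts scaled to library size) over 10 genes each from 9.32 to 10.87 and from 8.37 to 11.45. B cell and T cell markers varied far more, from -1.28 to 7.03 and from -1.22 to 5.76 on the same scale. In whole colon, fewer cells of a type and less RNA per cell cannot be told apart.

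The stretch just before the transcription start is shown for 5 members, Fos because it alone passed the test for vancomycin, and the pairs Junb with Zfp36 and Fosb with Nr4a1 because their levels moved together most closely in SPF colon. The letters are from RefSeq, build GRCm38.p6, which matched 8 of the 10 members (not Egr1 or Ier2) and is not the build named for the expression values (GRCm39). Each is the 130 bases before the start, on the gene's own strand. Capitals mark TGACG, the core of the site bound by CREB and ATF proteins, on either strand (CGTCA on the other), and in Zfp36 the CArG box bound by serum response factor.
Fos chr12:85473760-85473889 (+): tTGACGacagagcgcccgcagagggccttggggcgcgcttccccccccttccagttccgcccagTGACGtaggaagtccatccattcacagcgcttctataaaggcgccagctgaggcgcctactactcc
Fosb chr7:19310046-19310175 (-): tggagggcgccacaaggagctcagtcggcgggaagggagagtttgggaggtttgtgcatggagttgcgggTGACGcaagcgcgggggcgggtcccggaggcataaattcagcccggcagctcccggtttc
Nr4a1 chr15:101266716-101266845 (+): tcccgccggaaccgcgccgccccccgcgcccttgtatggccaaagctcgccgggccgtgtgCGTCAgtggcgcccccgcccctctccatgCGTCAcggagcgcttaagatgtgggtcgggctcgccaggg
Junb chr8:84978749-84978878 (-): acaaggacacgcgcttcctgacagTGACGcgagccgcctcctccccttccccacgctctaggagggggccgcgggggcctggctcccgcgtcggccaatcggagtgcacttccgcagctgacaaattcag
Zfp36 chr7:28379229-28379358 (-): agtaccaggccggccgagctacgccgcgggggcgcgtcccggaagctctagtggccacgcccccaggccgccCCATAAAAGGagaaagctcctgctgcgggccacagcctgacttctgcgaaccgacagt
In the windows of 250 bases before to 50 after the start, TGACG on either strand was present in 6 of the 8 members, against 20.81% of all 32851 promoters in the table. The whole cAMP response element TGACGTCA, which holds TGACG on both strands, was present in 1 of 8 (Btg2) against 1.79%, and the CArG box in 1 of 8 (Zfp36) against 1.629%. The EGR site, GCGTGGGCG or GCGGGGGCG, was in 3 of 8 (Fosb, Nr4a1 and Zfp36) against 3.467%, and the AP-1 site TGANTCA in 0 of 8 against 7.808%. These are matches of letters, and say nothing of binding in colon or of sites outside these windows.

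Fos encodes the AP-1 subunit most used as a marker of recent activation. In SPF colon after PBS it stood at 198, 166, 131 and 89 CPM at ZT5 and at 108, 20.8, 47.7 and 75.9 CPM at ZT11. It was at 49.6, 175, 345 and 232 CPM at ZT17 and 187, 197, 133 and 249 CPM at ZT23. The 16 PBS libraries thus spanned a 16.6-fold range, with replicate 1 at ZT17 far below the other 3 of its group. After vancomycin the SPF values were 95.7, 31, 122 and 93 CPM at ZT5 and 53.5, 54.8, 97.9 and 134 CPM at ZT11. They were 42.3, 55.7, 73.7 and 39.4 CPM at ZT17 and 74.8, 39.6, 64.8 and 79 CPM at ZT23. No vancomycin library passed 134 CPM, a level that 8 of the 16 PBS libraries exceeded.

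In GF colon Fos ran from 47.0 to 281 CPM after PBS, with a median of 116 CPM, and from 49.6 to 268 CPM after vancomycin, with a median of 115 CPM. The 4 GF libraries at ZT17 after vancomycin lay close together at 49.6, 70.2, 60.4 and 72.7 CPM. Those at ZT17 after PBS stood at 116, 178, 59.6 and 106 CPM, and the groups overlapped. The 2 colonies' tables are separate, so no level was tested between SPF and GF colon.

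**Figure D1:**
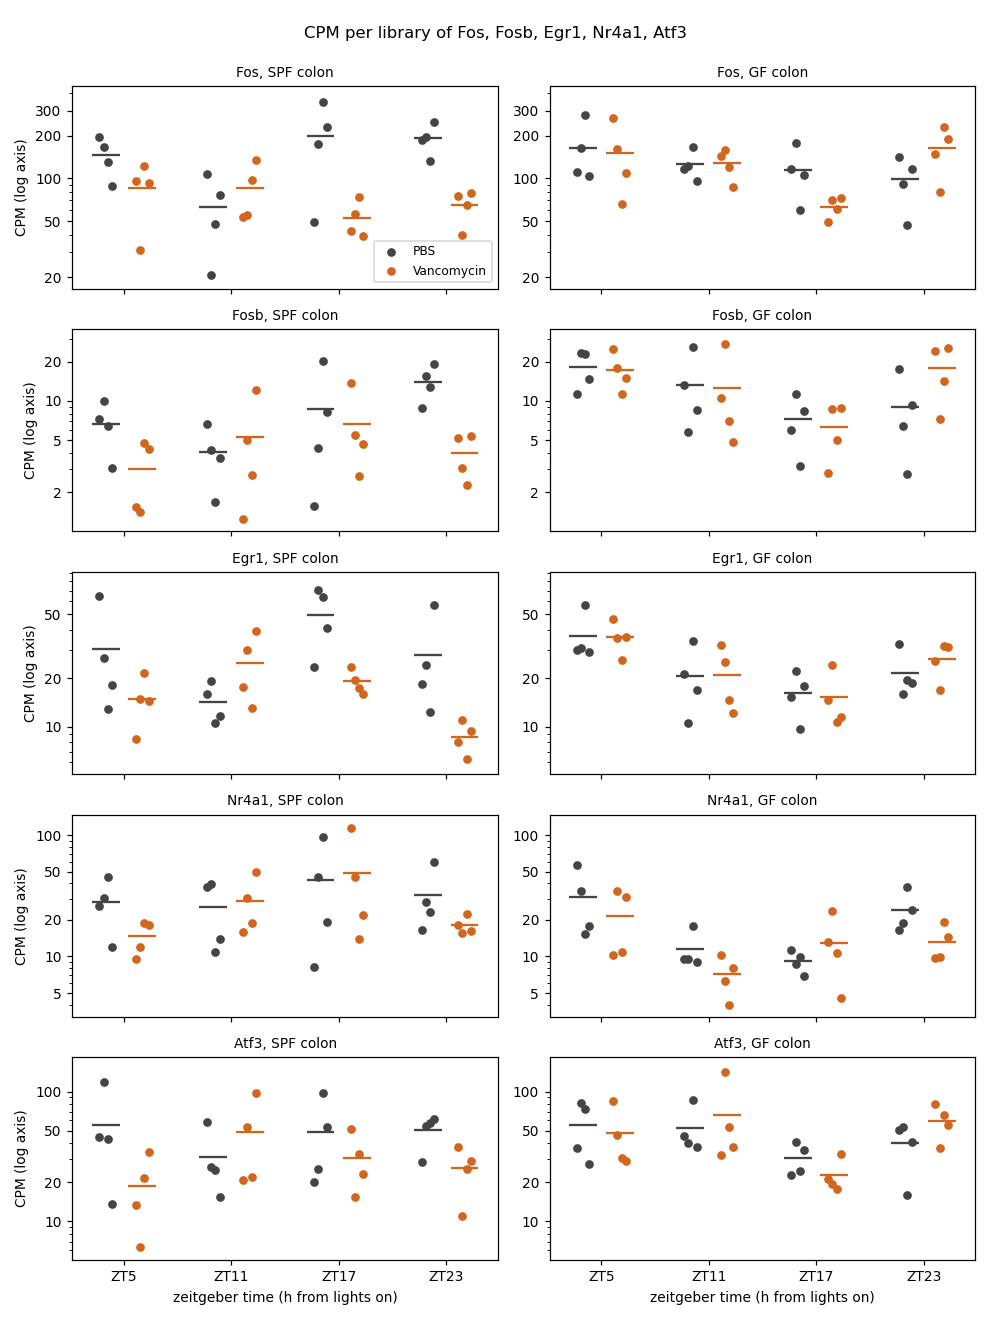
CPM on a log axis (y) at each zeitgeber time (x) for Fos, Fosb, Egr1, Nr4a1 and Atf3, in SPF (left) and GF (right) colon. Each point is 1 library after PBS (grey) or vancomycin (orange), and each horizontal bar the mean of 4; Fos after vancomycin stays at or below 134 CPM in SPF colon, while the GF points of both treatments overlap at all 4 times.

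Fosb, a second Fos-family subunit that also makes a long-lived short form, was low in SPF colon, from 1.58 to 20.4 CPM after PBS and from 1.25 to 13.8 CPM after vancomycin. At ZT23 it was at 8.8, 15.5, 12.9 and 19.1 CPM after PBS. After vancomycin at that time it was at 5.24, 3.08, 2.28 and 5.34 CPM, all below the PBS libraries. GF libraries ran from 2.76 to 27.4 CPM.

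Egr1, a zinc finger factor driven by MAP kinase signals, stood at 23.4, 70.5, 63.8 and 41 CPM at ZT17 in SPF colon after PBS, against 23.5, 19.6, 17.5 and 16 CPM after vancomycin. At ZT23 the PBS libraries held 18.4, 24, 12.3 and 56.7 CPM. The vancomycin libraries at ZT23 held 8.01, 10.9, 6.34 and 9.42 CPM, the lowest group mean of the 8 SPF groups, and did not overlap with PBS. GF colon held 9.69 to 56.6 CPM, with the highest group means at ZT5 under both treatments, 36.6 ± 13.3 (SD, n = 4) after PBS and 36.1 ± 8.40 (SD, n = 4) after vancomycin.

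Nr4a1, an orphan nuclear receptor induced in neurons, muscle and lymphocytes, spread widely within SPF groups, from 8.16 to 96.6 CPM after PBS and from 9.50 to 113 CPM after vancomycin. At ZT17 the SPF values were 8.16, 44.9, 96.6 and 19.2 CPM after PBS and 113, 45.2, 14 and 21.9 CPM after vancomycin. These 2 groups hold both the lowest PBS value and the highest value of all. Atf3, a stress-induced partner and repressor in the same family of leucine zipper factors, ran from 6.33 to 118 CPM in SPF and from 15.99 to 141 CPM in GF libraries. Its SPF values at ZT5 were 44.5, 118, 43.2 and 13.6 CPM after PBS and 13.4, 6.33, 21.4 and 34.4 CPM after vancomycin, with 1 PBS library, replicate 4, inside the vancomycin range.

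Jun, the AP-1 partner of Fos, ran from 100.4 to 348 CPM in SPF and from 97.2 to 234 CPM in GF colon. At ZT5 in SPF colon it was at 289.8, 348, 289 and 145 CPM after PBS and 193, 139, 182 and 129.7 CPM after vancomycin, with PBS replicate 4 again inside the vancomycin range. Junb, an AP-1 subunit that can restrain Jun, had its highest group mean in SPF colon at ZT17 after PBS. There it stood at 169.5, 349.6, 310.3 and 271 CPM, while the other 12 SPF PBS libraries lay between 80.5 and 198 CPM. Of the 4, only replicate 1 fell within that range.

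Zfp36, whose protein tristetraprolin binds AU-rich messages and speeds their decay, was likewise highest in SPF colon at ZT17 after PBS, at 85.9, 157, 109 and 99.1 CPM. At ZT5 after PBS it was at 83.5, 68.6, 44 and 67.4 CPM. The ZT23 libraries after PBS reached 95.99 CPM, inside the range at ZT17. Btg2, an antiproliferative adaptor of the deadenylase complex, and Ier2, a small nuclear factor of less settled function, had the narrowest spread within SPF groups. Btg2 ran from 103 to 253 CPM in SPF and 95.7 to 149.7 CPM in GF colon, and Ier2 from 62.0 to 124 CPM and from 72.5 to 124 CPM.

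**Figure D2:**
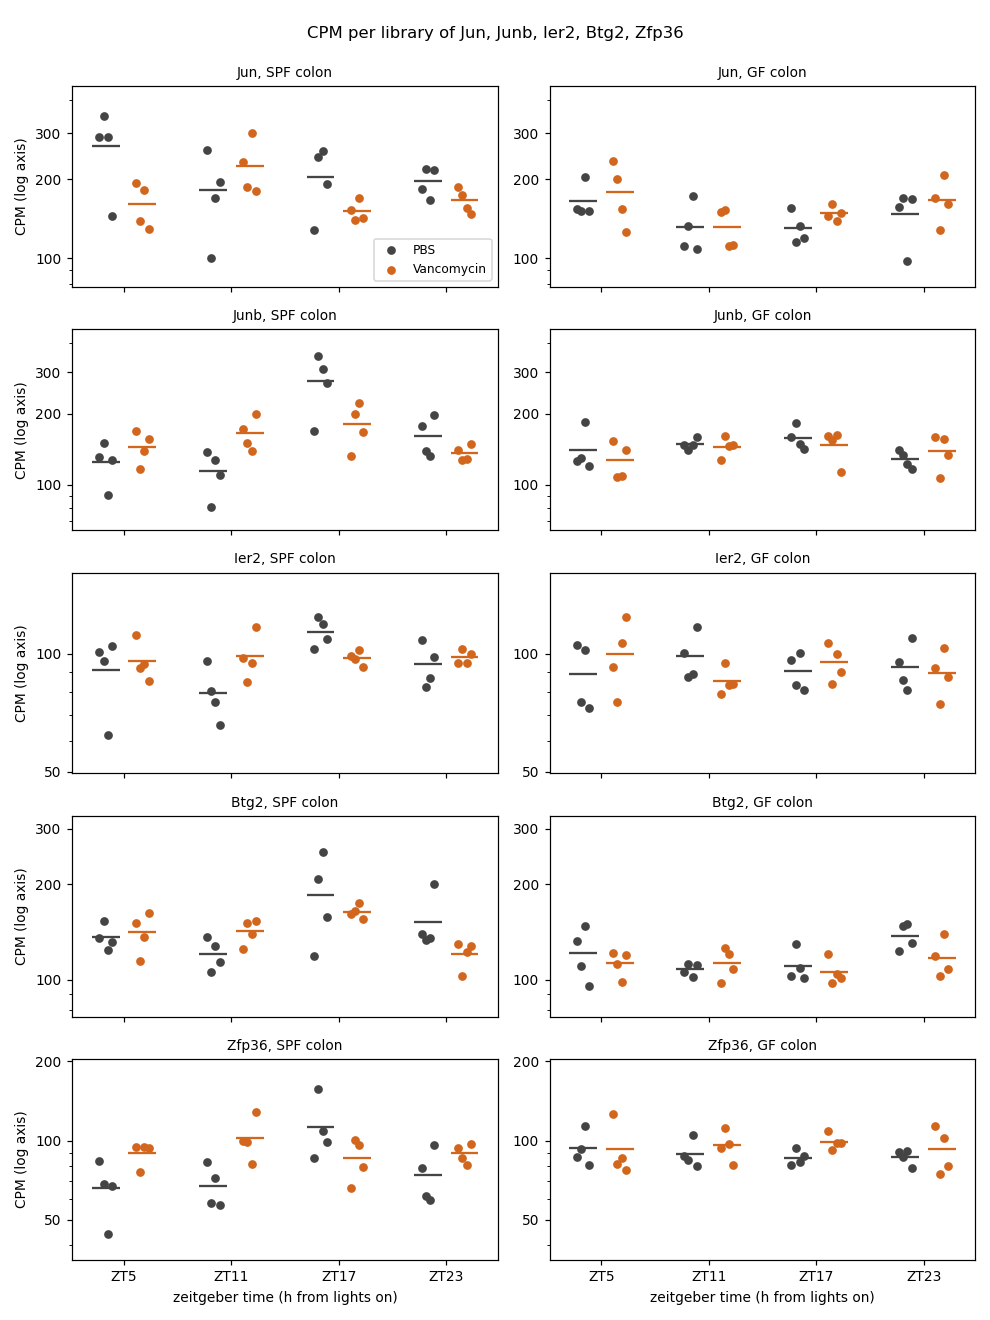
CPM on a log axis (y) at each zeitgeber time (x) for Jun, Junb, Ier2, Btg2 and Zfp36, in SPF (left) and GF (right) colon. Each point is 1 library after PBS (grey) or vancomycin (orange) and each horizontal bar the mean of 4; Junb reaches 349.6 CPM in SPF colon at ZT17 after PBS, while the other SPF PBS groups stay at or below 198 CPM.

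The 10 genes differed in how far libraries of 1 group lay apart. In SPF colon the within-group SD of log2 CPM was 0.99 for Fosb, 0.94 for Nr4a1, 0.93 for Atf3, 0.75 for Fos and 0.67 for Egr1, against a median of 0.32 over all 16938 genes tested. It was 0.37 for Jun, 0.30 for Junb, 0.29 for Zfp36, 0.24 for Btg2 and 0.19 for Ier2. In GF colon Fosb was again widest at 0.84 and Btg2 was narrowest at 0.17, against a median of 0.39 over 16951 genes. When the 8 groups of a colony were ordered by their mean, all 7 neighbouring pairs overlapped for each of the 10 genes in both colonies. The order alone therefore separates no neighbouring groups.

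Vancomycin was compared with PBS over the 4 times, 16 against 16 libraries in each colony, with edgeR's quasi-likelihood test and Benjamini-Hochberg adjustment over all genes. In SPF colon Fos fell by 0.96 on the log2 scale (SE 0.23, adjusted p = 0.046), with a median of 149.8 CPM after PBS and 69.2 CPM after vancomycin. It was lower in mean after vancomycin at 3 of the 4 times, ZT11 being the exception. Fos was the only 1 of the 10 to pass 0.05, where 0.809% of all genes passed and 0.431% passed as lower. The call lay close to the threshold. Its adjusted p ranged from 0.0231 to 0.0788 when single libraries were left out, passing in 9 of 32 such fits, and was 0.0518 with colon position (distal minus proximal Hox gene level) as a covariate. It was 0.072 with smooth muscle markers as a covariate and 0.0549 with no filter on low counts. The log2 fold change in these 3 fits was -0.99, -0.95 and -0.96, so the size of the difference hardly moved. DESeq2 called Fos with an adjusted p of 0.00404, in a comparison where it called 2.84% of all genes.

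Among the other AP-1 genes the SPF difference was -0.74 ± 0.32 (SE) for Fosb (adjusted p = 0.257), -0.63 ± 0.30 for Atf3 (adjusted p = 0.302), -0.28 ± 0.12 for Jun (adjusted p = 0.263) and -0.02 ± 0.10 for Junb (adjusted p = 0.943). Of the remaining genes, Egr1 was nearest to the threshold at -0.83 ± 0.23 (adjusted p = 0.0753), and DESeq2 called it (adjusted p = 0.0179). Nr4a1 stood at -0.35 ± 0.31, Btg2 at -0.05 ± 0.08, Ier2 at 0.06 ± 0.07 and Zfp36 at 0.23 ± 0.10, with adjusted p from 0.243 to 0.798. The median over the 10 genes was -0.31, against -0.004 over all genes, and 8 of the 10 differences were negative. The 10 are not independent, since they share libraries and many vary together.

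In GF colon the same comparison called 0 of the 10, where 0.0% of all genes passed, with 0 at an unadjusted p under 0.05 and 0 called by DESeq2 (0.0295% of all genes). The differences ran from -0.39 ± 0.23 (SE) for Nr4a1 to 0.16 ± 0.28 for Fosb, with -0.06 ± 0.20 for Fos and 0.05 ± 0.18 for Egr1. The difference between the colonies' effects was tested in a fit of all 64 libraries. It was -0.90 ± 0.31 for Fos (adjusted p = 0.404), -0.88 ± 0.29 for Egr1 (adjusted p = 0.387), -0.91 ± 0.44 for Fosb (adjusted p = 0.492) and -0.40 ± 0.16 for Jun (adjusted p = 0.43). These 4 had an unadjusted p under 0.05, and edgeR and DESeq2 each called 0 of the 10 (0.0% and 0.0964% of all genes), so a difference between SPF and GF colon was not established.

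**Figure D3:**
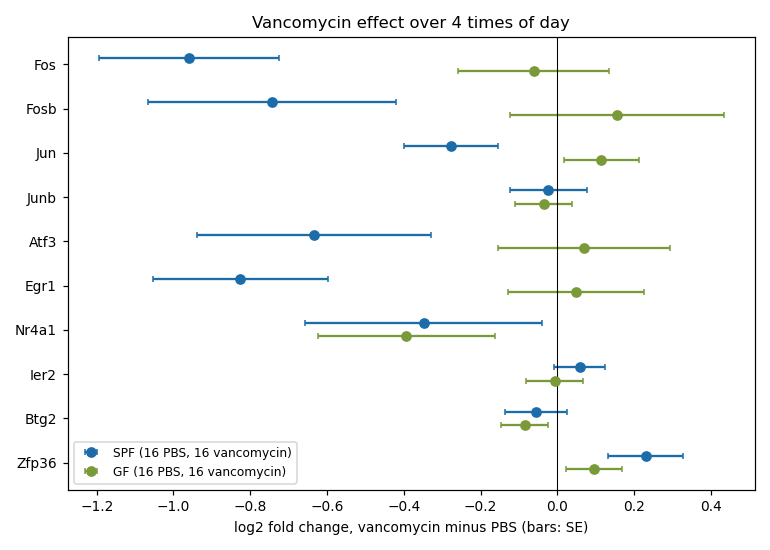
Log2 fold change of vancomycin against PBS over the 4 times (x) for each gene (y), with SE bars, in SPF (blue) and GF (green) colon, from 16 against 16 libraries each. The SPF estimates for Fos, Fosb, Atf3 and Egr1 lie between -0.96 and -0.63, and the GF estimates for these 4 genes between -0.06 and 0.16.

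The direction in SPF colon varied with the time of collection. At ZT11 all 10 differences were positive, with a median of 0.40, from 0.18 for Nr4a1 to 0.80 for Egr1. At ZT5 the median was -0.76, at ZT17 -0.42 and at ZT23 -0.58, with 6, 9 and 8 of the 10 negative. The medians over all genes at the 4 times lay between -0.010 and 0.005. With 4 against 4 libraries, edgeR called 0 of the 10 at each time, where 0.0827%, 0.0%, 0.319% and 0.0% of all genes passed at ZT5, ZT11, ZT17 and ZT23. At an unadjusted p under 0.05 there were 4, 3, 3 and 4 of the 10. The share of all genes at that unadjusted level is not given, in this or any other comparison. Such counts therefore stand without a background. DESeq2 called 0, 0, 1 and 0 of the 10, with 1.44%, 0.555%, 0.868% and 0.248% of all genes.

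At ZT17 Fos differed by -1.93 ± 0.48 (SE, adjusted p = 0.0906), Egr1 by -1.38 ± 0.46 (adjusted p = 0.291) and Junb by -0.61 ± 0.20 (adjusted p = 0.291). Fos was the gene DESeq2 called there (adjusted p = 0.00542). Of the 32 edgeR fits that left out 1 library, only that without replicate 1 of the PBS group called it (-2.24, adjusted p = 0.0278). Over these fits the edgeR adjusted p of Fos ran up to 0.3, and its log2 fold change from -2.24 to -1.52. At ZT23 Fosb differed by -1.82 ± 0.65, Egr1 by -1.68 ± 0.47 and Fos by -1.57 ± 0.47, with adjusted p from 0.296 to 0.484. At ZT5 Atf3 differed by -1.54 ± 0.62 (adjusted p = 0.267) and Jun by -0.74 ± 0.25 (adjusted p = 0.181). At ZT11 the smallest p belonged to Zfp36, at 0.60 ± 0.20 (adjusted p = 0.278), followed by Junb at 0.54 ± 0.20 (adjusted p = 0.377).

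**Figure D4:**
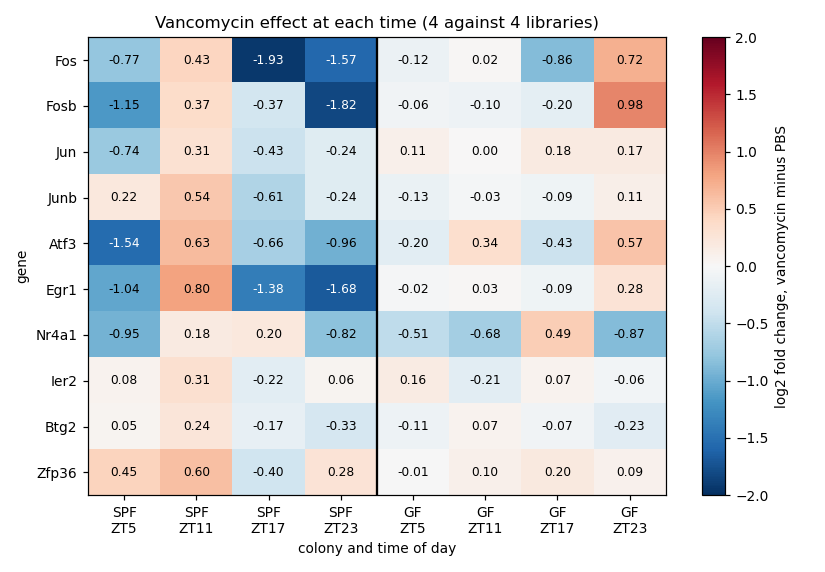
Log2 fold change of vancomycin against PBS (colour) for each gene (rows) at each zeitgeber time in SPF and GF colon (columns), 4 against 4 libraries per cell. All 10 SPF values at ZT11 are positive and 9 of 10 at ZT17 are negative; edgeR called none of these differences.

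PBS and vancomycin libraries of SPF colon did not overlap for Fos, Fosb, Egr1 and Btg2 at ZT23, all 4 lower after vancomycin, where 3.02% of all genes separated in that direction. Btg2 was at 139, 133, 136 and 201 CPM after PBS and 129.8, 103, 122 and 127 CPM after vancomycin. Ier2 alone separated at ZT17, lower after vancomycin (3.33% of all genes), and only narrowly. Its lowest PBS library held 102.8 CPM and its highest vancomycin library 102.2 CPM. Junb alone separated at ZT11, higher after vancomycin (1.42%), also narrowly. Its highest PBS library held 137.6 CPM and its lowest vancomycin library 139.6 CPM. None of the 10 separated at ZT5 in SPF colon (8.74% of all genes in either direction), nor at any time in GF colon (1.13%, 3.24%, 2.02% and 6.61% in order of time). The test of treatment by time in SPF colon called 0 of the 10 with edgeR, where 0.36% of all genes passed. Junb (adjusted p = 0.204), Egr1 (adjusted p = 0.235), Zfp36, Fos and Jun had an unadjusted p under 0.05, and DESeq2 called Junb (adjusted p = 0.039) and Egr1 (adjusted p = 0.0427), with 1.21% of all genes. In GF colon that test called 0 with both tools and none had an unadjusted p under 0.05, where 0.0% of all genes passed with edgeR and 0.0531% with DESeq2.

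In GF colon at single times edgeR and DESeq2 also called 0 of the 10, where 0.0% of all genes passed with edgeR at each of the 4 times and 0.0531%, 0.0472%, 0.0767% and 0.324% with DESeq2. The only unadjusted p under 0.05 was that of Fos at ZT17, -0.87 ± 0.40 (SE, adjusted p = 0.994). The GF differences at ZT23 ran from -0.87 ± 0.46 for Nr4a1 to 0.98 ± 0.56 for Fosb.

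Time of day was tested over the 4 groups of each treatment, again with edgeR. In SPF colon after PBS, Junb (adjusted p = 7.46e-04) and Zfp36 (adjusted p = 0.0208) varied with time, 2 of the 10 where 8.9% of all genes passed. Group means of Junb were 125 ± 24.7 (SD, n = 4) CPM at ZT5, 114 ± 24.96 at ZT11, 275 ± 77.4 at ZT17 and 162 ± 31.6 at ZT23. Those of Zfp36 were 65.9 ± 16.3, 67.4 ± 12.5, 113 ± 30.9 and 74.0 ± 17 CPM. Zfp36 lost its call without replicate 2 at ZT17 (adjusted p = 0.141) and with smooth muscle markers as a covariate (adjusted p = 0.0566), and Junb passed in every alternative run. Ier2, Btg2, Egr1 and Fos had adjusted p from 0.056 to 0.0723, and DESeq2 called these 4 too, 6 of the 10 in all, where it called 15.6% of all genes. The mean log2 CPM of the smooth muscle markers moved with time in these libraries, from 9.01 ± 0.30 (SD, n = 4) at ZT23 to 10.3 ± 0.54 at ZT11. All 10 of these marker genes passed the same test. With this marker level as a covariate in edgeR, Junb had an adjusted p of 0.00278 and Zfp36 of 0.0566. Over all genes 305 then passed, in place of 1507. The part of smooth muscle content in these time courses was not tested further.

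Other lists moved with time in the same SPF PBS libraries. Of 10 glucocorticoid targets 6 passed the test, among them Klf9 (adjusted p = 6.15e-04), Zbtb16 (adjusted p = 0.00195) and Tsc22d3 (adjusted p = 0.0121). Their mean log2 CPM was highest at ZT17, as for Junb and Zfp36, at 6.46 ± 0.52 (SD, n = 4) against 5.84 ± 0.14 at ZT5, 6.03 ± 0.16 at ZT11 and 5.88 ± 0.15 at ZT23. Of 11 heat shock genes 3 passed, Hsph1, Hspb1 and Hsp90aa1, and the mean of that list was lowest at ZT17, at 6.73 ± 0.09 (SD, n = 4) against 6.95 to 6.97 at the other times. The part of either in the time course of Junb and Zfp36 was not tested.

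After vancomycin in SPF colon edgeR called 0 of the 10 for time of day, where 8.2% of all genes passed, with 2 at an unadjusted p under 0.05 (Egr1 and Nr4a1) and 0 called by DESeq2 (13.3% of all genes). Junb means then ran from 137 ± 9.95 (SD, n = 4) CPM at ZT23 to 180 ± 39.2 at ZT17. In GF colon edgeR called 0 of the 10 after either treatment, where 0.142% of all genes passed in each. After PBS 3 had an unadjusted p under 0.05, and Nr4a1 (adjusted p = 0.169) was called by DESeq2 (adjusted p = 0.0234), with 2.34% of all genes. Its GF values after PBS were 56.2, 34.5, 15.2 and 17.8 CPM at ZT5 and 11.4, 8.71, 9.97 and 6.85 CPM at ZT17. After vancomycin 4 had an unadjusted p under 0.05 (Fos, Atf3, Egr1 and Nr4a1), and DESeq2 called 0 (1.06% of all genes).

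The wider pathway was read from lists of genes that exclude the members. In SPF colon vancomycin changed 0 of 11 other AP-1 and ATF subunits tested, 0 of 6 other EGR and NR4A factors and their NAB partners, 0 of 40 other early response genes and 0 of 12 MAP kinase phosphatases and feedback inhibitors, by edgeR. Of all genes 0.809% passed, so counts of 0 in lists this short do not set them apart. At an unadjusted p under 0.05 these lists held 1, 0, 7 and 3 genes, with no share of all genes at that level to set beside them. The smallest p among the early response genes were those of Nfkbia, the inhibitor of NF-kappaB (0.34 ± 0.10 SE, adjusted p = 0.0988), and Plk2, a kinase induced by serum (-0.39 ± 0.12, adjusted p = 0.107). Medians of the 4 lists were 0.05, 0.11, -0.002 and -0.08. Of 24 upstream MAP kinase, SRF and CREB genes, Crtc3, a CREB coactivator, rose (0.24 ± 0.06, adjusted p = 0.0465) and Map2k1, the kinase MEK1, fell (-0.24 ± 0.06, adjusted p = 0.0476). Both calls lay close to the threshold, and no fit without single libraries is given for them.

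Lists of other influences on these genes gave mixed counts in SPF colon. Of 10 glucocorticoid targets, Ddit4 (0.61 ± 0.12 SE, adjusted p = 0.0184) and Tsc22d3 (0.43 ± 0.09, adjusted p = 0.029) rose after vancomycin. In this comparison 0.809% of all genes passed, and the part of glucocorticoid action in the Fos result was not tested. None of 11 heat shock genes passed, with 2 at an unadjusted p under 0.05. Of the cell type markers, Krt18, an epithelial keratin, fell (-0.48 ± 0.10, adjusted p = 0.019), and Cd3d, a chain of the T cell receptor complex, rose (1.92 ± 0.46, adjusted p = 0.0428). All 8 T cell and all 8 B cell markers had positive differences, with medians of 1.06 and 0.69. T cell markers ranged from 0.08 to 5.06 in mean log2 CPM over the PBS libraries and from 0.41 to 5.76 over the vancomycin libraries. Colon epithelium ranged from 9.39 to 10.25 and from 9.32 to 10.17. Markers of adipocytes and mesothelium went the other way, as Fos did: 6 of 7 were negative, with a median of -1.13, 2 at an unadjusted p under 0.05 (Plin1 and Lep) and 0 past the adjusted threshold. Their mean log2 CPM ranged from -0.79 to 4.57 over the PBS libraries and from -0.48 to 3.30 over the vancomycin libraries. All 10 smooth muscle genes and 7 of 8 enteric neuron and glia genes also had negative differences, with medians of -0.12 and -0.35 and 0 past the threshold. The part of these cells in the Fos result was not tested, other than by the smooth muscle covariate. In GF colon no gene of any list was called for vancomycin, as for all genes.

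With time of day after PBS in SPF colon, where 8.9% of all genes passed, 3 of the 11 AP-1 and ATF relatives passed: Maff (adjusted p = 0.0187), Mafg (0.0358) and Batf2 (0.0495). So did 4 of the 40 early response genes, the clock gene Per1 (adjusted p = 0.0127), Csrnp1 (0.0169), Ier5 (0.0259) and Trib1 (0.0273), and 2 of 12 feedback inhibitors, Spry2 (0.0439) and Dusp6 (0.0488). The share of the early response genes that passed was thus near that of all genes. Of the EGR and NR4A relatives 0 of 6 passed, with 0 at an unadjusted p under 0.05. After vancomycin the nuclear receptor Nr4a3 passed (adjusted p = 0.0216), with Batf2, Ier5, Hbegf, Npas4, Per1 and Dusp6, where 8.2% of all genes passed. In GF colon Per1 was the only one of these 4 lists to pass, after both treatments (adjusted p = 8.66e-04 after PBS and 1.03e-04 after vancomycin).

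Within groups, many pairs of members varied together from library to library. Correlations were taken over the 32 libraries of a colony after each group's mean was subtracted from log2 CPM, with p from 100000 permutations within groups, of which 1e-05 is the smallest possible, adjusted over the 45 pairs. In SPF colon all 45 pairs had a positive Pearson r (median 0.44, from 0.06 to 0.86), and 21 passed 0.05. With Spearman's rho 18 passed. Junb and Zfp36 were closest, with r = 0.86 (permutation p = 1e-05, adjusted p = 4.50e-04) and rho = 0.90 (permutation p = 1e-05), and r = 0.88 without the 2 libraries farthest from the median in Junb. Fosb and Nr4a1 had r = 0.81 (permutation p = 2e-05, adjusted p = 4.50e-04) and rho = 0.77, and r = 0.73 without 2 libraries.

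As a yardstick, 42.2% of the 45 SPF pairs had an r of 0.5 or more. Of the pairs between a member and each of 11959 other named genes with a mean of at least 5 CPM, 1.89% did. Fos reached 0.5 with 5 of the other 9 members and with 1.84% of the other genes, Zfp36 with 4 of 9 and 0.393%, and Jun with 1 of 9 and 3.76%. SPF PBS ZT17 replicate 3 lay farthest above its group, by a mean of 0.76 in log2 CPM with 9 of 10 members above the group mean. In SPF PBS ZT11 replicate 1 and SPF PBS ZT23 replicate 4 all 10 lay above it.

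In GF colon 37 of the 45 pairs had a positive r (median 0.39, from -0.29 to 0.77), and 19 passed, 10 with Spearman's rho. Without GF PBS ZT5 replicate 3 the count was 9. Fos and Fosb were closest, with r = 0.77 (permutation p = 1e-05, adjusted p = 4.50e-04) and rho = 0.81 (permutation p = 1e-05), and r = 0.79 without 2 libraries. Here 35.6% of the member pairs and 5.41% of pairs with 11861 other genes reached 0.5. Nr4a1 and Ier2 reached 0.5 with 0 of the other 9 members. Nr4a1 and Fosb, so close in SPF colon, had r = -0.12 in GF colon, and the difference between the colonies was not tested.

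**Figure D5:**
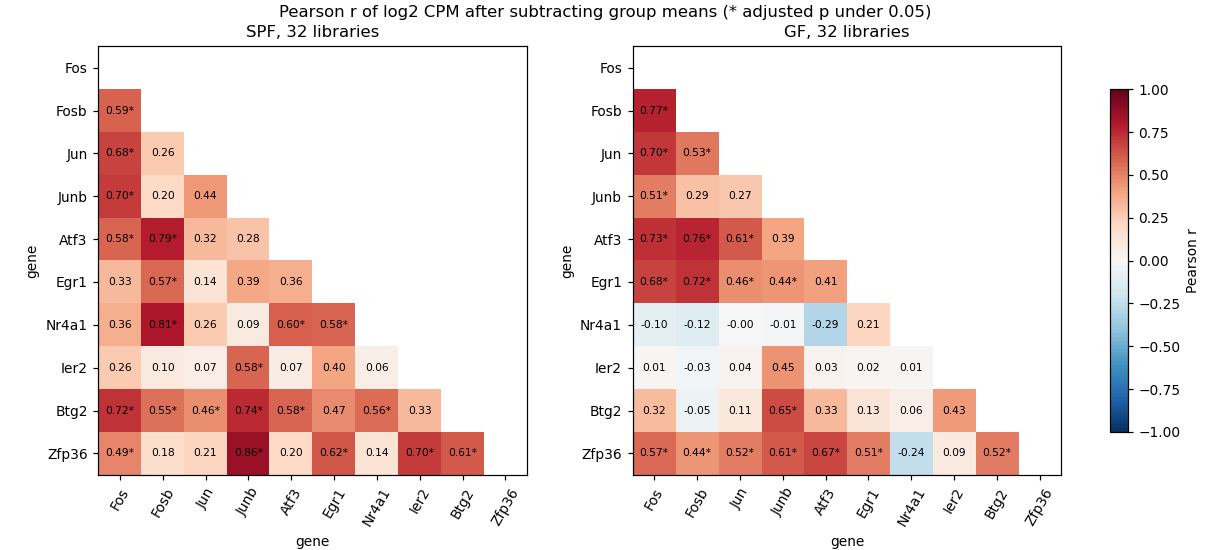
Pearson r (colour and printed value) between each pair of members in SPF (left) and GF (right) colon, over 32 libraries after group means were subtracted from log2 CPM; stars mark an adjusted permutation p under 0.05. All 45 SPF values are positive, and in GF colon the row and column of Nr4a1 hold values from -0.29 to 0.21.

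The members were also correlated with the mean log2 CPM of each of 18 lists, 180 relations per colony, adjusted together. In SPF colon 15 passed and in GF colon 21. The 40 other early response genes followed Fosb (r = 0.77, adjusted p = 0.0021), Atf3 (r = 0.77, adjusted p = 0.0018) and Fos (r = 0.69, adjusted p = 0.0138) in SPF colon, and Fos (r = 0.74, adjusted p = 0.0027) in GF colon, all by permutation. Spearman's rho for these 4 was 0.71, 0.73, 0.61 and 0.75, and r without 2 libraries 0.66, 0.74, 0.62 and 0.67. Btg2 (r = 0.75) and Nr4a1 (r = 0.66) also passed with this list in SPF colon, 5 members in all. In GF colon Egr1 (r = 0.71), Jun (r = 0.69) and Fosb (r = 0.58) did too, 4 in all.

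Marker levels of other cells moved with some members. In SPF colon Egr1 rose with T cell markers (r = 0.73, rho = 0.75, r = 0.69 without 2 libraries, adjusted permutation p = 9e-04) and with B cell markers (r = 0.68, rho = 0.70). In GF colon Fos fell with T cell markers (r = -0.72, rho = -0.73, r = -0.69 without 2 libraries, adjusted permutation p = 0.0027) and rose with colon epithelium (r = 0.69, rho = 0.64, adjusted permutation p = 0.0157). Fosb in GF colon also fell with T cell markers (r = -0.72). For Egr1 the sign differed between the colonies. In GF colon Egr1 had r = -0.57 with B cell markers (rho = -0.55, adjusted permutation p = 0.0356). With T cell markers Egr1 had r = -0.52 there (rho = -0.58, adjusted permutation p = 0.0591). Fos with T cell markers was negative in both colonies, but weak in SPF colon (r = -0.11, adjusted permutation p = 0.791). The difference between the colonies was not tested. In SPF colon 0 of the 10 members passed with smooth muscle, and in GF colon 1 did, Btg2 (r = -0.57, adjusted permutation p = 0.0224). The part of cell makeup in the members' spread was not tested.

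Outside the members, the genes whose mean r to the 10 was highest in SPF colon were Areg and Hbegf, both ligands of the EGF receptor, with 0.52 and 0.50 over the 32 libraries. Sertad1, the phosphatase Dusp1, Dedd2, the tight junction gene Cldn4, H2-K2, Maff, H2-K1 and the carbonic anhydrase Car4 followed, down to 0.45. H2-K1 and H2-K2 are close copies whose reads may be shared. In GF colon the leaders were Tmbim1 (0.53), Id1 (0.49), an inhibitor of basic helix-loop-helix factors, and Trib1 (0.47), then Agpat4, Pkm, Mafk, Gen1, Mgst3, Txndc17 and Tradd, down to 0.45. These are the top 10 of 11959 and of 11861 genes, described with no test, and the 2 sets had 0 genes in common.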

How the data were processed

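Members and gene lists were chosen with earlier results of these data known. Per the submitters' processing notes, Trim Galore 0.6.2, cutadapt 3.5, Salmon and build GRCm39 were used, and per the labels' protocols libraries were poly(A)-selected from 1000 ng RNA and read as single-end 75 cycles on a NextSeq 550. The authors deposited estimated counts per gene, 1 table per colony with 32 libraries each and 0 columns of other samples. The file names call them normalized, but the values show no depth scaling; no source used here gives the annotation or the use of strand, so genes with close copies are uncertain.

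Values were rounded, genes with 10 or more in at least 4 libraries were kept, and edgeR 4.0.16 (R 4.3.3; TMM, quasi-likelihood, 8 group means per table, threshold 0.05) was fitted per table, with all 64 libraries in 1 fit for SPF minus GF effects. CPM are TMM-scaled, and log2 CPM use a prior count of 0.5. Tested on simulated data for the SPF vancomycin comparison (16938 genes), 91 of 100 genes changed by 1 on the log2 scale were recovered. In that simulation 11 unchanged genes were also called. The changed genes were drawn at random from genes with ample counts, with no effect of time of day. The recovered share therefore does not hold for members with a wide spread, such as Fos and Fosb, whose recovery was not tested. Correlations used numpy 2.4.6. Alternatives were DESeq2 1.42.0, RLE size factors, no filter, a replicate block, 2 covariates, a prior count of 2 and leaving out each library. Named genes were all members, other listed genes past the threshold or with the 2 smallest p, and the 10 genes most correlated with the members per table.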

Additional observations from a re-analysis of the deposited data

Results flagged for a closer look

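Within groups of 4 libraries, 8 of the 160 gene and group combinations held 1 library whose gap to the nearest other exceeded Dixon's 95% critical value. Chance flags about 1 in 20 groups, and the 8 flagged here are no more than that share. GF PBS ZT5 replicate 3 was high for 3 members, with Egr1 at 56.6 CPM against 29.2 to 30.6 in the other 3 libraries, Jun at 205 CPM against 152 to 155, and Junb at 184 CPM against 120 to 130. Without this library, 9 in place of 19 GF pairs of members passed as correlated. GF PBS ZT11 replicate 3 was high for Atf3, at 85.4 CPM against 37.2 to 45.4, and for Nr4a1, at 17.7 CPM against 9.08 to 9.52. Btg2 in SPF PBS ZT23 replicate 4 stood at 201 CPM against 133 to 139. On the low side were Junb in GF vancomycin ZT17 replicate 4, at 113 CPM against 155 to 162, and Zfp36 in SPF vancomycin ZT5 replicate 2, at 75.9 CPM against 93.7 to 94.8.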

How the results depend on the processing

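With DESeq2 in place of edgeR, more members passed: 2 for vancomycin over the 4 times in SPF colon, 1 at ZT17, 2 for treatment by time, 6 for time of day after PBS, and 1 for time of day after PBS in GF colon. For SPF vancomycin over the 4 times, 0 members passed with the colon position covariate, with the smooth muscle covariate or with no filter, and 1 passed for SPF time of day after PBS with the smooth muscle covariate. The cause was not tested.

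Leaving out each library in turn gave 0 to 1 members for SPF vancomycin over the 4 times. Fos kept its call without SPF PBS ZT5 replicate 4, ZT11 replicate 2 or ZT17 replicate 1, and without SPF vancomycin ZT5 replicate 1 or 3, ZT11 replicate 3 or 4, ZT17 replicate 3 or ZT23 replicate 4, and lost it without each of the other 23 (log2 fold changes -1.04 to -0.86). At SPF ZT17 the count was 0 to 1, with Fos passing without PBS replicate 1. SPF time of day after PBS gave 1 to 5 members: 5 without ZT17 replicate 1, 4 without ZT5 replicate 3, ZT11 replicate 1 or ZT23 replicate 4, and 1 without ZT17 replicate 2. GF pairs of members past the threshold numbered 9 to 22 (9 without GF PBS ZT5 replicate 3, 10 without GF vancomycin ZT5 replicate 1, 11 without ZT23 replicate 2 and 12 without ZT11 replicate 2), and GF member and list pairs 12 to 30 (12 without GF vancomycin ZT5 replicate 1). SPF pairs numbered 16 to 22.

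Signs turned only for differences near 0. With the colon position covariate these were Btg2 (-0.0055), Junb (-0.0108) and Nr4a1 (-0.0719) for SPF minus GF, and Ier2 (0.0254) in GF colon; with the smooth muscle covariate, Btg2 (-0.0137), Junb (-0.0009) and Ier2 (0.0026). On leaving out libraries, log2 fold changes ran in GF colon from -0.102 to 0.156 for Atf3, -0.0285 to 0.136 for Egr1, -0.169 to 0.0482 for Fos, -0.0247 to 0.293 for Fosb, -0.039 to 0.0239 for Ier2 and -0.0607 to 0.0171 for Junb. They ran for SPF minus GF from -0.0092 to 0.0753 for Btg2, -0.0364 to 0.0448 for Junb and -0.174 to 0.243 for Nr4a1, and in SPF colon from -0.0685 to 0.0101 for Junb.

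Over all genes, DESeq2 called 481 for SPF vancomycin (edgeR 137, and 80 with no filter), and 244, 94, 147 and 42 at ZT5, ZT11, ZT17 and ZT23 (edgeR 14, 0, 54 and 0). It called 205 for treatment by time (edgeR 61), 2639 and 2254 for SPF time of day after PBS and vancomycin (edgeR 1507 and 1389), and 396 and 179 in GF colon (edgeR 24 and 24). With the smooth muscle covariate the SPF time counts were 305 and 307 and both GF counts 43, and with colon position the SPF counts were 748 and 575. DESeq2 called 16 genes for SPF minus GF and 5 to 55 in the 6 GF comparisons that involve vancomycin, where edgeR called 0.

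Same-numbered libraries did not deviate together (median correlation 0.02 in SPF and -0.05 in GF colon), so the numbers do not pair them. A replicate block left 1 member called for SPF vancomycin over the 4 times (Fos, adjusted p = 0.0405), 2 for SPF time of day after PBS and 0 in each other comparison. RLE size factors and a prior count of 2 changed no count of members past the threshold by more than 1.5 times. All members passed the count filter in both tables, and recovery of known changes at 4 against 4 libraries was not tested.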
